A study of Homo sapiens with 30 samples.

Results

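HCT116 cells that carried a SETDB1 hairpin and were sorted as KRT-negative were compared with unsorted HCT116 cells, over all genes and library by library. HCT116 is a human colorectal carcinoma cell line. The 6 libraries were taken by their titles, 3 KRT-negative and 3 unsorted, of 30 libraries in the series, which holds 3 colorectal cancer lines in 10 groups of 3. The KRT-negative cells were HCT116 cells with an shSETDB1 vector. For the unsorted cells the labels name the line and that the cells were not sorted, and no hairpin. All samples share one protocol text, which describes retroviral transduction with puromycin at 2 µg/ml for 3 days and 1 µg/ml afterwards. From day 3 on, a differentiation medium held 10 µM troglitazone and 25 nM 1α,25-dihydroxyvitamin D3. Whether the sorted and the unsorted HCT116 cells both received that medium is not given for single samples, nor is the keratin of the HCT116 sort, nor whether the replicates were separate cultures. Hairpin, sort and medium cannot be told apart in this comparison, and p-values reflect how far these libraries vary, which may be technical only.

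SETDB1 is a histone methyltransferase that places trimethylation on lysine 9 of histone H3 and, recruited by TRIM28 and zinc finger proteins, keeps repeats, some zinc finger clusters and other loci silent. Troglitazone is an agonist of PPARG, a nuclear receptor that switches on genes of lipid storage and fatty acid use. The vitamin D3 hormone activates VDR, whose best known target in the gut and in colon cancer lines is CYP24A1, the enzyme that breaks the hormone down. KRT20 is a keratin of mature intestinal epithelium. RNA was read as QuantSeq 3′ tags, 1 tag per transcript end, so a gene's level is given as tags per 1000000 tags of the library (CPM) with TMM scaling, and levels are not compared between genes of unlike length or tag efficiency. Genes were tested with edgeR's quasi-likelihood test, and the call was made at an FDR of 5 percent across 13279 tested genes.

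The KRT-negative libraries held 8024326, 9591926 and 10221854 tags and the unsorted ones 6284241, 7130812 and 5349737. Replicates of a group differed far beyond counting error: the chi-square of replicate pairs per degree of freedom was 36.61 to 87.06 over the 9 HCT116 libraries, and their Spearman correlation across genes 0.861 to 0.898. Between 8 and 96 genes per library were at 3 counts or fewer while both other replicates had at least 10 CPM, against 0 in each of the 12 Caco2 libraries. The libraries also fell on both sides of a trend of level with transcript GC content, which cuts across the groups. KRT-negative replicate 1 and unsorted replicates 1 and 2 had slopes of -0.162, -0.181 and -0.0806 log2 per 10 points of GC, and KRT-negative replicates 2 and 3 and unsorted replicate 3 had slopes of 0.237, 0.175 and 0.276. Markers of the colorectal epithelium were present in all 6 libraries, with a summed level of 2024 to 2827 CPM in the KRT-negative and 1425 to 2199 CPM in the unsorted libraries. The summed level of 8 leukocyte markers was 36.4 to 54.0 CPM against 6.39 to 29.7 CPM, with PTPRC, MS4A1 and SPI1 at 0 in every KRT-negative library and CD68 leading the sum. Of 7 fibroblast markers the sum was 50.9 to 69.9 CPM against 31.5 to 55.2 CPM, with DCN, LUM and PDGFRA at 0 in every KRT-negative library. Endothelial and red blood cell markers summed to at most 2.92 CPM in the KRT-negative libraries. The part of these differences in the results below was not tested.

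SETDB1 itself (GRCh38 chr1:150926263-150964744, plus strand) was read at 0, 5.75 and 2.97 CPM in KRT-negative replicates 1, 2 and 3 and at 72.5, 70.8 and 16.8 CPM in the unsorted replicates. All 3 KRT-negative libraries lay below all 3 unsorted ones, with unsorted replicate 3 the lowest of its group. The change was -4.19 ± 1.14 on the log2 scale (SE, edgeR adjusted p = 0.0424). The call rests on single libraries: with KRT-negative replicate 3 left out, or either of the first and second unsorted replicates, the adjusted p reached as much as 0.161. KRT20 had 0 counts in each KRT-negative library and 1, 1 and 4 counts in the unsorted libraries, too few to test, so KRT20 is no check of the sort here. Of the keratins of simple epithelia, KRT19 stood at 140.3, 308 and 192 CPM in the KRT-negative and 414, 465 and 617 CPM in the unsorted libraries. KRT19 fell in the KRT-negative cells (log2 -1.23 ± 0.31, adjusted p = 0.0274), a call lost without KRT-negative replicate 1 or 3 or unsorted replicate 2 or 3 (adjusted p up to 0.109). KRT8, its usual partner, and KRT18 were not called, at log2 -0.87 ± 0.37 and -0.32 ± 0.23.

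Between the groups 698 genes were called (5.26% of those tested), 374 higher (2.82%) and 324 lower (2.44%) in the KRT-negative cells. Of these 634 differed by at least 2-fold, and 692 had no overlap between the 6 libraries, against 24.5% of all tested genes without overlap. The median log2 change over all tested genes was 0.04. The number of calls rested on single libraries: it was 453 without KRT-negative replicate 2, 395 without KRT-negative replicate 3, 432 without unsorted replicate 1 and 404 without unsorted replicate 2. No gene of the 698 that was tested changed sign in these fits, which the lack of overlap in 692 of them all but fixed in advance. In bulk RNA, fewer cells of a type or phase and less RNA per cell cannot be told apart. Genes are grouped below by 27 lists, with each list's counts to be read beside these shares of all tested genes. Where edgeR called members of a list in 1 direction and 0 in the other, DESeq2 called 0 as well, other than 2 silencing genes higher, 1 p53 target lower and 3 ZNF genes lower. Called genes lay at every level, from TRPV6 and CD274, which were close to absent from the unsorted cells, to HSPA5 and ACTG1, which are among the most abundant transcripts of HCT116.

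**Figure D1:**
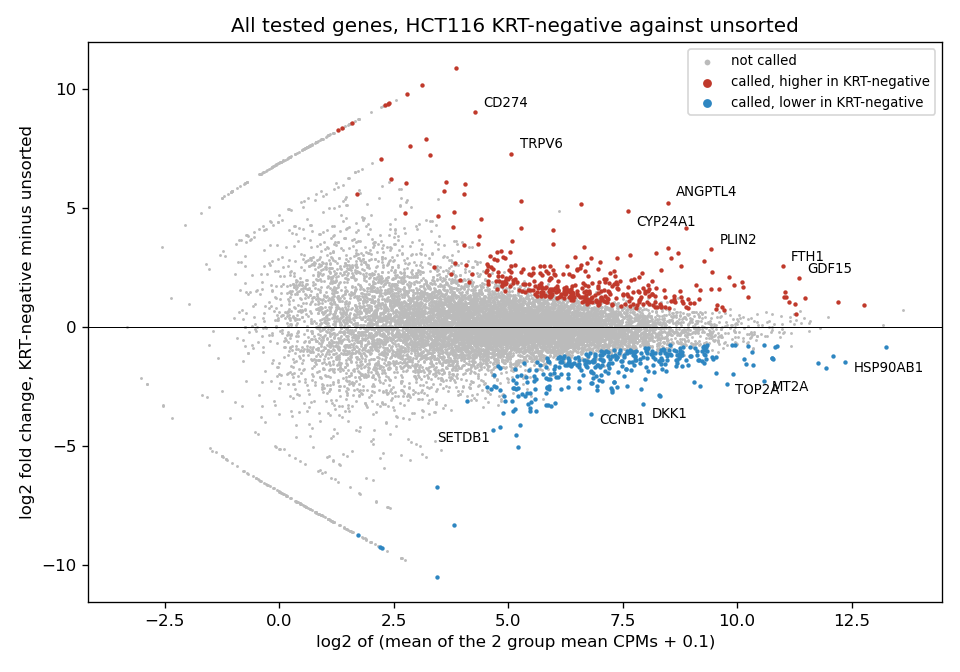
Each point is 1 of the 13279 tested genes, with the log2 of the mean of both groups' mean CPM (plus 0.1) on the x axis and the fitted log2 fold change of KRT-negative minus unsorted on the y axis. The 374 genes called higher are red and the 324 called lower are blue, and both directions reach the most abundant genes; the slanted lines of grey points at low level are genes at 0 counts in one group.

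Targets of VDR and PPARG, the receptors of the agonists in the medium, were among the genes that rose most. Of 15 tested VDR targets, out of 25 listed, 4 were called higher and 0 lower, with a median log2 change of 1.47. With no filter on low counts the median was 0.915 over 22 genes. By DESeq2 it was 0.892, and with the side of the GC trend as a term 0.954. The median of the main fit became 0.75 without KRT-negative replicate 2, 0.92 without KRT-negative replicate 3 and 0.97 without unsorted replicate 3. It was 0.58 with only the libraries of negative GC slope. CYP24A1 (GRCh38 chr20:54153449-54173973, minus strand) was at 455, 409 and 267 CPM in the KRT-negative and 8.78, 12.8 and 17.3 CPM in the unsorted libraries. Its lowest KRT-negative library was far above its highest unsorted one, and the means differed 29.1-fold (log2 4.87 ± 0.36, edgeR adjusted p = 1.22e-06). TRPV6, the apical calcium channel of intestinal calcium uptake, was at 52.3, 76.9 and 69.9 CPM against 0, 0.287 and 1.07 CPM, or 7 counts in all over the unsorted libraries. It rose by 7.26 ± 0.88 on the log2 scale (adjusted p = 0.000155), from a level at or under 3 counts per library in 2 of the 3 unsorted libraries. TRPV6 could not have passed the filter on low counts through the unsorted group, so it could only be called higher. KLK6, a secreted serine protease, was at 523, 702 and 735 CPM against 59.5, 118 and 17.1 CPM. Its groups did not overlap, although unsorted replicate 3 was well below the other unsorted libraries, and the means differed 10.1-fold (adjusted p = 0.000953). The other called member, the GTPase EFTUD1 of ribosome assembly, was at 67.1, 50.6 and 64.2 CPM against 20, 30.7 and 14.9 CPM (log2 1.47 ± 0.36, adjusted p = 0.0248), and its call was lost without KRT-negative replicate 1 or 3 or unsorted replicate 1 or 3 (adjusted p up to 0.0902).

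Of 22 tested PPAR targets 7 were called higher and 0 lower, with a median log2 change of 1.36 and 19 of the 22 above 0. ANGPTL4, a secreted inhibitor of lipoprotein lipase, had the smallest p of all genes. It was at 522, 728 and 846 CPM in the KRT-negative and 13.3, 17.5 and 25.2 CPM in the unsorted libraries, 37.4-fold apart (log2 5.23 ± 0.35, adjusted p = 1.06e-06). PLIN2, a coat protein of lipid droplets, was at 1010, 1241 and 1510 CPM against 107, 109 and 168 CPM (9.80-fold, adjusted p = 1.82e-06). SLC25A20, which carries acylcarnitines into mitochondria, was at 87.5, 105 and 55.4 CPM against 25.5, 14.9 and 27.7 CPM (adjusted p = 0.00637). In these 3 genes every KRT-negative library lay above every unsorted one, and the calls held without each of the 6 libraries in turn. FABP4, the fatty acid binding protein of fat cells, was at 30.03, 13.8 and 29.4 CPM against 0.163, 0.431 and 0.426 CPM, with 6 counts in all in the unsorted libraries (log2 6.11 ± 1.32, adjusted p = 0.0115, and 0.0619 without KRT-negative replicate 3). FABP4 could not have passed the filter on low counts through the unsorted group, so it could only be called higher. The other called members, ACADVL and HADHB of fatty acid oxidation and LPIN1 of lipid synthesis, rose by 1.20, 1.10 and 1.52 on the log2 scale. ACADVL lost its call without KRT-negative replicate 2 or unsorted replicate 2 and the other pair without any 1 library but unsorted replicate 3 (adjusted p up to 0.0863, 0.184 and 0.146). Without KRT-negative replicate 2 or 3 or unsorted replicate 2, 4 members were called. The receptors' own transcripts were not called, with log2 changes of 2.77 ± 1.02 for PPARG and 0.96 ± 0.47 for VDR (adjusted p = 0.153 and 0.301).

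**Figure D2:**
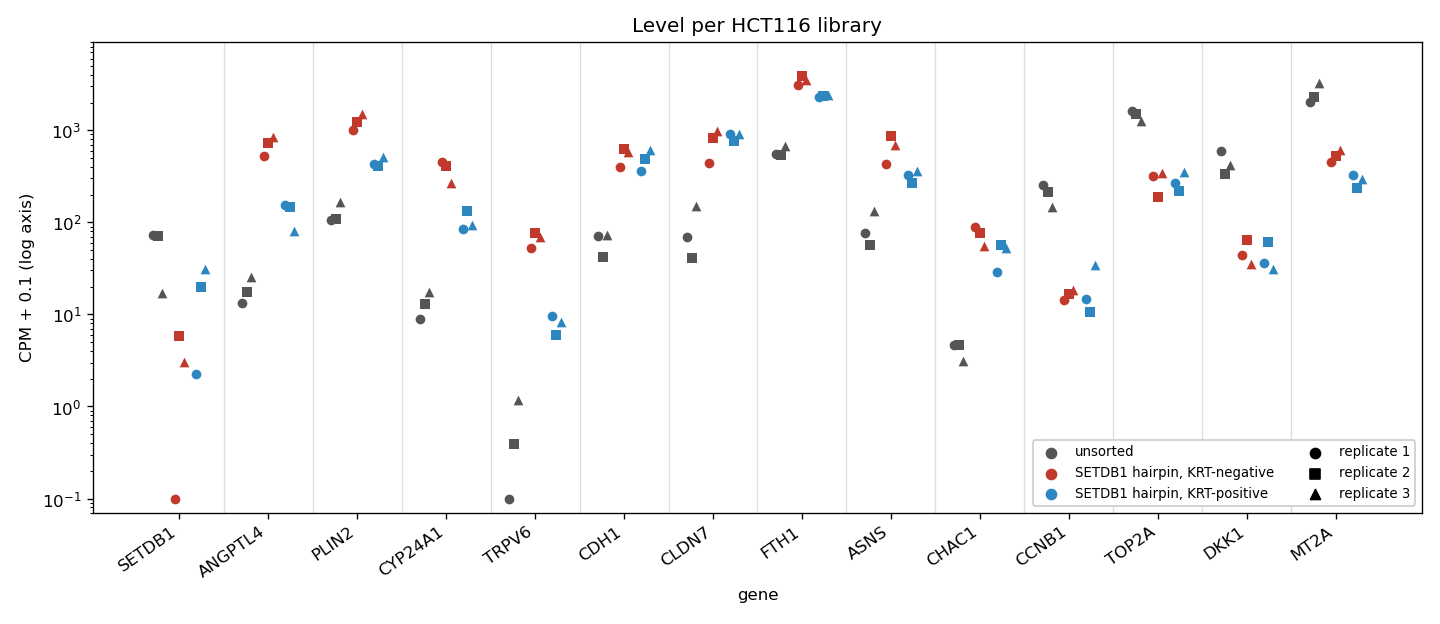
Points are single HCT116 libraries, with the level in CPM plus 0.1 on a logarithmic y axis and 14 genes on the x axis; colour gives the group and shape the replicate number. In ANGPTL4, PLIN2, CYP24A1 and TRPV6 the KRT-negative libraries lie above the KRT-positive ones as well as above the unsorted ones, in CDH1 and CLDN7 the sorted groups overlap, and in CCNB1, TOP2A, DKK1 and MT2A the unsorted libraries are the highest.

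Of the genes of the amino acid and unfolded protein responses 17 rose, of 32 tested. ATF4 is the transcription factor that is translated when amino acids or endoplasmic reticulum folding fall short and that switches on amino acid synthesis and transport, and it binds composite CEBP and ATF elements. 2 of its targets are shown with the 250 bases before the RefSeq gene start (GRCh38.p14), since these windows hold the motif TGATGNAA, written in capitals on either strand.
CHAC1, chr15:40953221-40953470, plus strand: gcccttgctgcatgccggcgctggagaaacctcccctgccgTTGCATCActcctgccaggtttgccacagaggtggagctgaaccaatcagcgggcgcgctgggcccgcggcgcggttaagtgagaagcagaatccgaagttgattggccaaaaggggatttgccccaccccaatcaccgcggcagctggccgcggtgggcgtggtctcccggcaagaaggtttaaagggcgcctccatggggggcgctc
ASNS, chr7:97872409-97872658, minus strand: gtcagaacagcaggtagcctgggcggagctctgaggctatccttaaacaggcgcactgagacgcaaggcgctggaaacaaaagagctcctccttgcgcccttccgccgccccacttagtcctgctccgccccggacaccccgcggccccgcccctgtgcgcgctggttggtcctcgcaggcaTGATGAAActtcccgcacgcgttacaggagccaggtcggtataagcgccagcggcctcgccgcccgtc
The motif occurs in 4 of 16 called members with a window in the RefSeq table (25%), the others being CEBPG and HERPUD1. It occurs in 4 of 28 tested members with a window (14.3%), in 214 of 9718 tested genes with a window (2.2%) and in 3.89% of all 27305 windows. A match is a description of these letters and not of a bound site.

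Of the 32, 0 were called lower by edgeR, and the list had a median log2 change of 1.01, beside 2.82% of all tested genes called higher. CHAC1, which degrades glutathione, was at 88.6, 76.2 and 54.8 CPM in the KRT-negative and 4.55, 4.60 and 2.98 CPM in the unsorted libraries (18.1-fold, edgeR adjusted p = 0.000101). ASNS, asparagine synthetase, was at 434, 856 and 694 CPM against 76.7, 56.02 and 132 CPM (7.48-fold, adjusted p = 7.87e-05). Both groups were well apart in both genes, and KRT-negative replicate 1 was the lowest of its group for ASNS but the highest for CHAC1. DDIT4, an inhibitor of mTORC1, was at 940.1, 1084 and 1214 CPM against 183, 122 and 168 CPM (6.85-fold, adjusted p = 3.07e-05). DDIT3, the pro-apoptotic factor CHOP, was at 139, 227 and 228 CPM against 29.3, 20.4 and 28.8 CPM (7.57-fold, adjusted p = 6.52e-05). The levels of the replicates lay within 2-fold of each other in either group for both. TRIB3, a pseudokinase that restrains ATF4, was at 152, 199 and 194 CPM against 22.9, 34.9 and 25.2 CPM (6.57-fold, adjusted p = 0.000101). The cystine transporter gene SLC7A11 stood out among the transporters, at 203, 177 and 172 CPM against 12.4, 19.1 and 22.8 CPM (10.2-fold, adjusted p = 0.00017). These 6 genes were called without each of the 6 libraries in turn. ATF4 transcript itself rose less, from 219, 296 and 281 CPM to 404, 479.6 and 514 CPM (log2 0.81 ± 0.21, adjusted p = 0.0359), and its call was lost without KRT-negative replicate 2 or 3 or unsorted replicate 1 or 2 (adjusted p up to 0.188). HSPA5, the chaperone BiP of the endoplasmic reticulum, was at 7602, 9315 and 10710 CPM against 4168, 4529 and 5829 CPM (1.90-fold, adjusted p = 0.00643, and 0.0813 without KRT-negative replicate 3).

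Targets of p53, which HCT116 is known to carry in wild-type form, were called higher in 9 of 30 tested members and lower in 0, with a median log2 change of 0.36, or 0.68 without unsorted replicate 3. GDF15, a secreted stress cytokine, was at 2817, 4996 and 4924 CPM in the KRT-negative and 653, 878 and 1487 CPM in the unsorted libraries (4.22-fold, adjusted p = 0.000353). GADD45A, a growth arrest gene, was at 474, 351 and 388 CPM against 98.7, 80.9 and 70.4 CPM (4.85-fold, adjusted p = 4.63e-05). CDKN1A, the cyclin-dependent kinase inhibitor p21, was at 558, 596 and 707 CPM against 190.2, 256 and 316 CPM (2.44-fold, adjusted p = 0.00305). In all 3 the lowest KRT-negative library lay above the highest unsorted one. TNFRSF10B, a death receptor for TRAIL, and SESN2, a leucine sensor that is also in the ATF4 list, rose 3.52-fold and 6.57-fold. MDM2, the ubiquitin ligase and direct target of p53, was at 295, 231 and 228 CPM against 232, 236 and 169 CPM, overlapping, and was not called (log2 0.24 ± 0.23, adjusted p = 0.697). GADD45A, GDF15, SESN2, DDIT3 and TRIB3 are known targets of more than one of these pathways, so the counts of the lists are not independent.

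Of 36 tested mitosis and G2M genes 23 fell, and of 41 tested DNA replication genes 15. Genes of mitosis are held silent in resting cells and opened late in the cycle through CHR elements (TTTGAA or TTTAAA) and CCAAT boxes close to the start site. 2 members are shown with the 250 bases before the RefSeq gene start (GRCh38.p14), with those letters in capitals.
CCNB1, chr5:69166900-69167149, plus strand: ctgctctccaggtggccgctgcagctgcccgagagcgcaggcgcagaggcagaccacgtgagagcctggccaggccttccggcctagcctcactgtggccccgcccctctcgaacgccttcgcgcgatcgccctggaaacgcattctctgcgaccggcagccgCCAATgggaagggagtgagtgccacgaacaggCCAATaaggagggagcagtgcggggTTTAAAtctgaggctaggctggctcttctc
PLK1, chr16:23678639-23678888, plus strand: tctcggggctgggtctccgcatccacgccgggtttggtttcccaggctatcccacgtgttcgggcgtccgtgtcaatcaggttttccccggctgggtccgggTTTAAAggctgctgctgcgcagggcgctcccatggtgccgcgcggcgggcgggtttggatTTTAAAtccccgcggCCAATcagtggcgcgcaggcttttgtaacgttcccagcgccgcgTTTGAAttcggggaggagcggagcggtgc
TTTGAA or TTTAAA, on either strand, was found in 17 of 20 called members with a window (85%) and 24 of 30 tested members with a window (80%), against 19.1% of the 9718 tested genes with a window and 25.5% of all windows. Together with CCAAT it was found in 14 of the 20 (70%) and in 21 of the 30 (70%), against 7.65% of the tested genes and 9.29% of all windows. Called members thus held the pair no more often than the list as a whole.

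In the mitosis list 0 genes were called higher, all 36 were below 0 and the median log2 change was -2.35, beside 2.44% of all tested genes called lower. CCNB1, the cyclin of mitotic entry, was at 14.3, 16.7 and 18.2 CPM in the KRT-negative and 257, 214 and 147 CPM in the unsorted libraries, 12.6-fold lower (log2 -3.65 ± 0.44, edgeR adjusted p = 0.000155). TOP2A, the topoisomerase of chromosome condensation, was at 315, 187 and 341 CPM against 1638, 1512 and 1261 CPM (5.23-fold lower, adjusted p = 5.62e-05). MKI67, the proliferation marker Ki-67, was at 88.97, 68.1 and 44.8 CPM against 468, 538 and 228 CPM (6.11-fold lower, adjusted p = 0.000233). For MKI67 unsorted replicate 3 was the lowest of its group and still above every KRT-negative library, as it was for CENPF of the kinetochore, at 96.2, 73.4 and 60.6 CPM against 645, 717 and 292 CPM. The kinesin KIFC1, chosen after its values were seen, was at 84.5, 69.9 and 76.1 CPM against 416, 462 and 813 CPM (7.34-fold lower, adjusted p = 2.56e-05). PLK1, the mitotic kinase of the window above, was at 6.40, 3.79 and 14.9 CPM against 74.95, 72.7 and 84.4 CPM (adjusted p = 0.0319). Its call was lost without any 1 of the 6 libraries other than KRT-negative replicate 3 (adjusted p up to 0.109). ANLN, BUB1B, CDCA3, FAM64A and KIF14, all with roles in mitosis or cytokinesis, were among the 15 largest drops of called genes with at least 10 CPM in the unsorted group and no overlap, at log2 changes of -3.53, -3.51, -3.60, -3.52 and -3.41. Without 1 library between 16 and 21 of the mitosis genes were called.

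In the DNA replication list 15 of 41 genes were called lower and 0 higher, and all 41 were below 0 (median log2 -1.43). RRM2, the regulated subunit of ribonucleotide reductase, was at 41.4, 60.8 and 46.1 CPM against 291, 262 and 289 CPM (5.68-fold lower, adjusted p = 0.000155), and RRM1, its large subunit, fell 3.34-fold. MCM2, a subunit of the replicative helicase, was at 58.1, 29.1 and 49.8 CPM against 242, 197 and 222 CPM (4.83-fold lower, adjusted p = 0.000418). TYMS, thymidylate synthase, was at 52.8, 51.9 and 48.8 CPM against 213, 163 and 249 CPM (4.07-fold lower, adjusted p = 0.000729). The groups lay apart by more than the range within either group in these 3 genes. GMNN, which blocks relicensing of origins, was at 4.55, 0.867 and 7.10 CPM against 88.5, 78.3 and 50.96 CPM (17.4-fold lower, adjusted p = 0.00155), and ORC6, of the origin recognition complex, fell 10.8-fold. The replication-dependent histone HIST1H4C was at 479.7, 365 and 349.6 CPM against 1292, 958 and 802 CPM (2.56-fold lower, adjusted p = 0.0043).

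**Figure D3:**
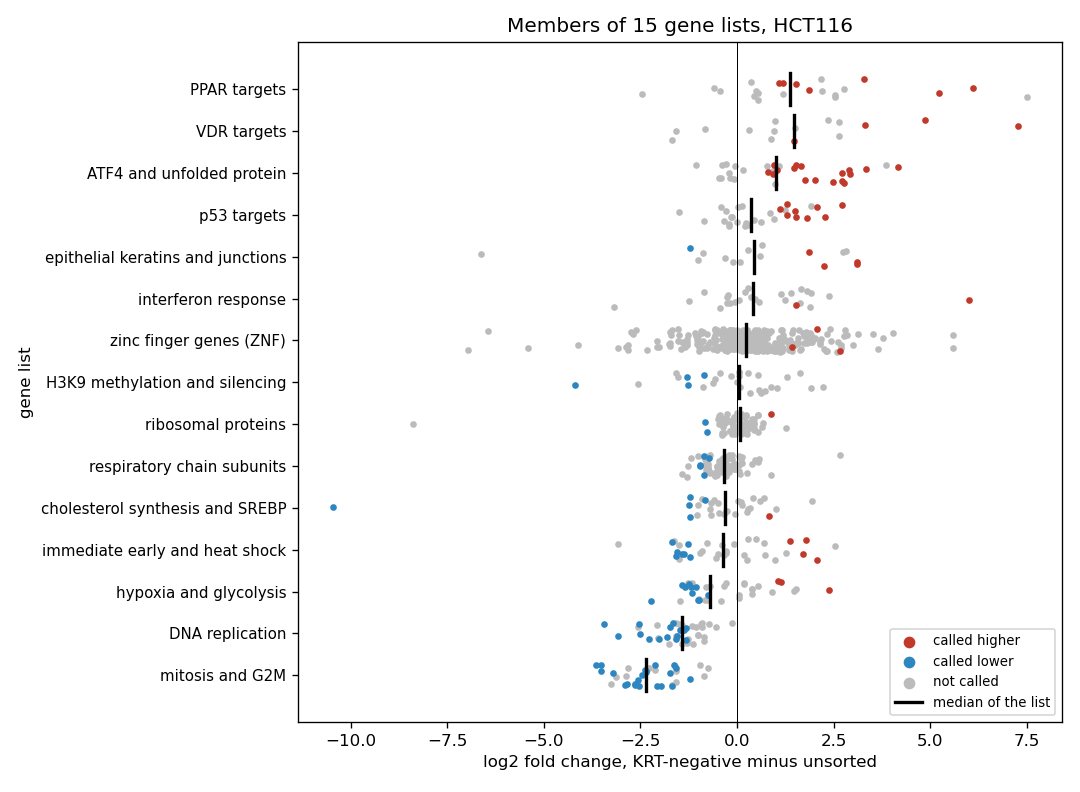
Each point is a tested member of 1 of 15 gene lists, with its log2 fold change of KRT-negative minus unsorted on the x axis; red and blue mark members called higher and lower, grey those not called, and the black bar is the list's median. The medians run from 1.47 for the VDR targets (0.75 without KRT-negative replicate 2) to -2.35 for the mitosis genes, and the called members of the ATF4, p53, VDR and PPAR lists all lie to the right and those of the replication and mitosis lists all to the left.

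Epithelial genes are given next, beside 2.82% of all tested genes called higher and 2.44% called lower. Of 16 tested genes of the list of epithelial keratins and junctions 4 were called higher and 1, KRT19, lower (median log2 0.44). With 1 library left out 2 or 3 members were called in all, whichever it was, and the median was 0.06 without unsorted replicate 1, 0.23 without KRT-negative replicate 3 and 1.83 without unsorted replicate 3. CDH1, the adhesion molecule E-cadherin, was at 398, 620.0 and 584 CPM in the KRT-negative and 71.4, 42.2 and 72.3 CPM in the unsorted libraries (8.62-fold, adjusted p = 1.88e-05). CLDN7, a claudin of the basolateral membrane, was at 441, 815 and 976 CPM against 69.1, 41.1 and 150.3 CPM (8.56-fold, adjusted p = 0.000227). Both genes were called without each library in turn, with KRT-negative replicate 1 the lowest of its group in each. OCLN of the tight junction and GRHL2, a factor of epithelial identity, were at log2 changes of 2.24 ± 0.59 and 1.85 ± 0.46 (adjusted p = 0.0352 and 0.0258). Their calls were lost without any 1 of the 6 libraries for OCLN, and without any but KRT-negative replicate 1 for GRHL2 (adjusted p up to 0.115 and 0.117).

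Of 9 tested colonocyte and enterocyte genes, out of 33 listed, 2 were called higher and 0 lower (median log2 0.52). The 2, CEACAM5 and CEACAM1, passed the filter on low counts through the sorted groups alone, so they could only be called higher. With no filter the median was 0.31 over 16 genes. The median rests on single libraries, at 0.12 without KRT-negative replicate 2, 1.02 without KRT-negative replicate 3 and 4.97 without unsorted replicate 2, and with either of the last 2 left out 1 member was called. CEACAM5, the carcinoembryonic antigen of mature colon cells, was at 11.6, 11.5 and 8.05 CPM in the KRT-negative libraries and at 0 counts in all 3 unsorted libraries, at least 61.1-fold higher against 3 counts over that group (adjusted p = 0.0107). CEACAM1, an adhesion molecule of the same family, was at 5.17, 1.74 and 10.5 CPM against 0 counts, at least 34.8-fold higher (adjusted p = 0.0172, and up to 0.0577 without KRT-negative replicate 3 or unsorted replicate 2). CEACAM6, with 0.123, 10.1 and 0.530 CPM in the KRT-negative libraries and 1 count in the unsorted ones, rested on replicate 2 and was not called. The regulator CDX2 was present in every library and was not called. Of 5 tested goblet and 3 tested enteroendocrine genes 0 were called by edgeR in either direction, and at an unadjusted p under 0.05, as by DESeq2, 0 and 1 were. Among 17 tested stem cell and Wnt targets 0 were called higher and 2 lower (median log2 -0.83), and 1 lower without KRT-negative replicate 3 or unsorted replicate 2 or 3. Both are direct Wnt targets: DKK1, a secreted Wnt inhibitor, was at 43.9, 63.96 and 34.9 CPM against 594, 332 and 415 CPM (9.39-fold lower, adjusted p = 5.62e-05). SP5, a transcription factor, was at 0.246, 0.325 and 0 CPM against 12.03, 31.6 and 20.5 CPM, with 5 counts in all in the KRT-negative libraries (adjusted p = 0.0183, and up to 0.139 without KRT-negative replicate 3 or unsorted replicate 2 or 3). Of 21 tested mesenchymal genes 0 were called by edgeR, 1 higher and 1 lower had an unadjusted p under 0.05, and DESeq2 called 1.

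Some of the smallest p-values belonged to genes outside the lists, most of them chosen here after their values were seen. FTH1, the ferritin heavy chain that stores iron, was at 3107, 3860 and 3530 CPM in the KRT-negative and 556, 534 and 678 CPM in the unsorted libraries (5.93-fold, adjusted p = 1.16e-06). SQSTM1, the autophagy receptor p62 and a target of NRF2, was at 1256, 1093 and 1128 CPM against 261, 218 and 224 CPM (4.94-fold, adjusted p = 2.34e-05). ALDH2, the mitochondrial aldehyde dehydrogenase, was at 129, 144 and 189 CPM against 22.3, 17.4 and 21.1 CPM (7.61-fold, adjusted p = 3.46e-05). MT2A, a metallothionein that binds zinc and copper, was at 447, 524 and 610.1 CPM against 2025, 2311 and 3241 CPM (4.79-fold lower, adjusted p = 3.07e-05) and MT1E, another, fell 5.48-fold (adjusted p = 3.46e-05). No library of one group reached the other in these 5 genes. Metallothionein genes are near copies of each other, so tags may be shared among them. SERINC2, a membrane protein, rose from 29.8, 40.9 and 79.96 CPM to 631, 1030 and 1015 CPM (17.8-fold, adjusted p = 4.93e-06). UPP1, uridine phosphorylase, was at 201, 168 and 190.4 CPM against 0.488, 9.05 and 5.97 CPM (36.1-fold, adjusted p = 0.00017). All of these were called without each of the 6 libraries in turn.

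SLC2A1 and several glycolytic enzymes fell. Of 35 tested hypoxia and glycolysis genes 3 were called higher and 10 lower (median log2 -0.69), and without 1 library between 5 and 12 were called in all, with 8 or fewer without any but unsorted replicate 3. SLC2A1, the glucose transporter GLUT1, was at 44.7, 49.8 and 39.7 CPM against 196, 219.9 and 213 CPM (4.69-fold lower, adjusted p = 0.000418). All 8 called enzymes of the pathway from GPI to LDHB were lower, other listed enzymes such as GAPDH, ALDOA, HK2 and PFKP were not called, and PGK1 and TPI1 among them fell 2.36-fold and 2.09-fold (adjusted p = 0.00568 and 0.00799). VEGFA, a hypoxia target, went up instead, from 25.04, 25.7 and 47.97 CPM to 164, 197 and 151 CPM (adjusted p = 0.0101, and up to 0.0585 without unsorted replicate 1 or 2). Of 80 tested subunits of the respiratory chain 0 were called higher and 5 lower (median log2 -0.35), 1 of them a pseudogene matched by its symbol, and without any 1 library between 1 and 3 were lower. Of 30 tested cholesterol and SREBP genes 1 was called higher and 5 lower, and without 1 library between 1 and 2. SCD and HMGCS1 had log2 changes of -0.82 and -1.21, and each lost its call without 5 of the 6 libraries in turn (adjusted p up to 0.151 and 0.213).

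Of 34 tested immediate early and heat shock genes 4 were called higher and 7 lower (median log2 -0.36). The called chaperones named next were lower, whereas the chaperone HSPA5, given above, was called higher. HSPD1, the mitochondrial chaperonin, was at 585, 591 and 606 CPM against 1677, 1819 and 1754 CPM, HSPA8 at 309.6, 335 and 331 CPM against 770.5, 858 and 1006 CPM and HSP90AA1 at 2681, 2420 and 2781 CPM against 6632, 6639 and 4978 CPM. They fell 2.95-fold, 2.70-fold and 2.32-fold (adjusted p = 0.00017, 0.000402 and 0.000809). HSP90AB1, the constitutive partner of HSP90AA1 and one of the 5 most abundant genes, is outside this list and fell 2.72-fold (edgeR adjusted p = 5.77e-05). The AP-1 factor JUN was at 1304, 1533 and 1689 CPM against 432, 298 and 586 CPM (3.44-fold higher, adjusted p = 0.000779) and the immediate early factor EGR1 at 237, 223 and 266 CPM against 572, 532 and 1077 CPM (3.01-fold lower, adjusted p = 0.00155). Of the other most abundant genes ACTG1, cytoplasmic actin, fell 1.76-fold (adjusted p = 0.00566), while MALAT1 and RPS27A overlapped between the groups and were not called. RPS27A was at log2 0.10 ± 0.21 and its sign differs between the fits of the closing section.

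Interferon and antigen presentation genes are given next, beside 2.82% of all tested genes called higher. Of 26 tested interferon response genes 2 were called higher and 0 lower (median log2 0.41). With 1 library left out, 4 were higher without unsorted replicate 3, 3 without KRT-negative replicate 1, and 1 was lower without KRT-negative replicate 3. The median ran from 0.206 without KRT-negative replicate 3 to 1.21 without unsorted replicate 2, and each of the 6 libraries moved it by over 1.5 times. ISG15, a ubiquitin-like protein, was at 331, 364 and 433 CPM in the KRT-negative and 77.1, 165 and 150.1 CPM in the unsorted libraries (2.88-fold, adjusted p = 0.00248). OAS1, a sensor of double-stranded RNA, was at 21.4, 51.8 and 24.4 CPM against 0, 0.287 and 1.28 CPM (adjusted p = 0.00414). OAS1 could not have passed the filter on low counts through the unsorted group, so it could only be called higher. Of 12 tested interferon gamma and antigen presentation genes 3 were called higher and 0 lower (median log2 0.73). B2M, the light chain of MHC class I, was at 774, 786 and 996 CPM against 256, 231 and 262 CPM (3.41-fold, adjusted p = 5.62e-05), and HLA-B, a heavy chain chosen after its values were seen, at 414, 394 and 408 CPM against 121, 115 and 159.7 CPM (3.08-fold, adjusted p = 0.000236). HLA class I genes share sequence, and how tags were split among them is not stated. CD274, the checkpoint ligand PD-L1, was at 19.2, 73.3 and 23.5 CPM against 1 count over the unsorted libraries, a ratio of 544 with a 95 percent counting interval from 125 up (adjusted p = 0.00017). APOL6 was at 17.7, 15.1 and 21.4 CPM against 1 count, a ratio of 254 with an interval from 57.6 up (adjusted p = 0.00201). Each of the 2 had every KRT-negative library above 10 CPM and stayed called without each library in turn. They passed the filter on low counts through the sorted groups alone, so they could only be called higher.

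Genes of the SETDB1 pathway and its known kinds of target were examined next. Of 29 tested genes of H3K9 methylation and silencing 0 were called higher and 4 lower, SETDB1, TRIM28, CBX1 and DNMT1, and 1 or 2 lower without any 1 library but KRT-negative replicate 2 or unsorted replicate 3. DNMT1, the maintenance DNA methyltransferase, was at 286, 219.9 and 234 CPM against 645, 589 and 563 CPM (2.43-fold lower, adjusted p = 0.00161). TRIM28, the corepressor that recruits SETDB1, and CBX1, an HP1 protein, fell by 1.31 and 0.86 on the log2 scale (adjusted p = 0.0362 and 0.0432). The TRIM28 call was lost without any 1 library and the CBX1 call without any but unsorted replicate 3 (adjusted p up to 0.119 and 0.199). Of 320 tested ZNF genes 3 were called higher and 0 lower, ZNF394, ZNF554 and ZNF655, with a median log2 change of 0.24. Without overlap 45 of the 320 lay upward (14.1%), against 12.3% of all tested genes, and 11 downward, against 12.1%. At an unadjusted edgeR p under 0.05 there were 23 higher and 6 lower, beside 2350 of all 13279 tested genes in either direction. The ZNF genes thus passed this cut less often than tested genes in general. The 3 calls were each lost without at least 3 of the 6 libraries in turn (adjusted p up to 0.11, 0.152 and 0.118). Of 53 listed clustered protocadherins 5 passed the filter on low counts, some of them through the sorted groups alone. EdgeR called 0 of the 5, and 2 had an unadjusted p under 0.05. With no filter edgeR called 0 of 24 and DESeq2 called 2 of 24. Summed over all 53 listed genes, tested or not, the level was 74.4, 59.2 and 66.9 CPM in the KRT-negative and 20.5, 28.7 and 20.02 CPM in the unsorted libraries. The difference of these sums was not tested. PCDHGC3 alone, which was not called, was at 24.98, 20.6 and 14.2 CPM against 1.79, 8.62 and 8.53 CPM. Of 6 tested germline genes 1, MAGEB2, was called lower (2.65-fold, adjusted p = 0.00568) and 0 higher. HIST2H2BE, a histone gene with a polyadenylated transcript, was at 14.03, 32.6 and 10.7 CPM against 2 counts over the unsorted libraries, with a counting interval of the ratio from 47.2 to 1420 (adjusted p = 0.00128). HIST2H2BE could not have passed the filter on low counts through the unsorted group, so it could only be called higher.

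Single genes with the largest rise were often close to absent from the unsorted cells. LURAP1L was at 35.6, 36.97 and 13.99 CPM, DAPP1 at 8.12, 12.9 and 30.7 CPM, LRG1 at 4.31, 11.5 and 24.9 CPM and PDGFRL at 8.24, 5.42 and 16.7 CPM, each against 0 counts in all 3 unsorted libraries. Against 3 counts over that group they were at least 169-fold, 105-fold, 83.3-fold and 60.9-fold higher (edgeR adjusted p = 0.0115, 0.00421, 0.0146 and 0.0368). These genes passed the filter on low counts through the sorted groups alone, so they could only be called higher. The LRG1 call was lost without KRT-negative replicate 3 (adjusted p = 0.0854) and the PDGFRL call without any 1 library (up to 0.14). The interstitial collagenase gene MMP1 was at 13.4, 39.6 and 17.1 CPM against 0, 0 and 1.49 CPM, the tetraspanin TSPAN8 at 17.7, 5.96 and 18.8 CPM against 1 count and UTS2B at 7.26, 10.7 and 21.8 CPM against 3 counts. MMP1, TSPAN8 and UTS2B could not have passed the filter on low counts through the unsorted group either. CALB2, the calcium-binding protein calretinin, was at 33.2, 115 and 79.7 CPM against 0.813, 2.01 and 2.98 CPM (39.2-fold, adjusted p = 0.00111). In the other direction the phosphodiesterase PDE4B was at 3.69, 2.82 and 2.44 CPM against 77.1, 71.5 and 56.5 CPM (22.9-fold lower, adjusted p = 0.00248). FAM198B was at 0, 3.58 and 2.97 CPM against 92.2, 66.2 and 55.6 CPM (adjusted p = 0.0117, and 0.0699 without unsorted replicate 1). The helicase PIF1 had 2 counts over the KRT-negative libraries against 21.9, 36.6 and 25.6 CPM in the unsorted ones (adjusted p = 0.02), and CDCA2 fell 19.8-fold (adjusted p = 0.0432). Their calls were lost without KRT-negative replicate 3 or unsorted replicates 1 or 2, and for PIF1 also without KRT-negative replicate 1 (adjusted p up to 0.0918 and 0.177). PIF1 could not have passed the filter on low counts through the sorted groups, so it could only be called lower.

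**Figure D4:**
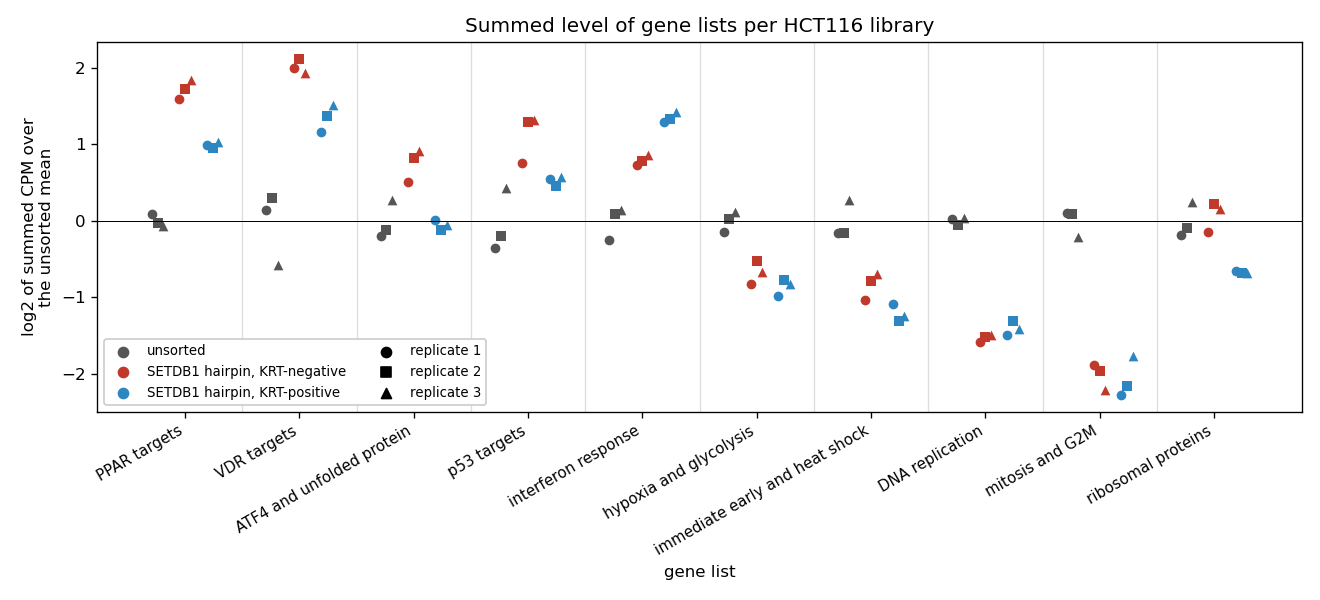
The y axis is the log2 of each library's summed CPM over all listed genes of a list, tested or not, set against the mean of the 3 unsorted libraries, for 10 lists on the x axis; colour gives the group and shape the replicate number. Each of the 3 KRT-negative libraries lies above the unsorted ones for the PPAR and VDR lists and below them for the replication and mitosis lists, while the ribosomal protein sums of the 2 groups overlap.

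The libraries on one side of the GC trend were then compared with each other, which leaves no library in common between the 2 fits. With KRT-negative replicate 1 and unsorted replicates 1 and 2, fitted with the 3 KRT-positive libraries of the same side, 350 genes were called (2.34% of 14944 tested). In that fit the lone KRT-negative library was taken to vary like the other groups. With KRT-negative replicates 2 and 3 and unsorted replicate 3 alone, 341 genes were called (2.53% of 13455 tested). This fit has 3 libraries, so its spread comes from the KRT-negative pair and edgeR's sharing across genes, and the lone unsorted library was taken to vary likewise. Of these 179 were called on both sides in the same direction, 51.1% of the first and 52.5% of the second list, and 0 in opposite directions. Of the 698 genes, 696 were tested on both sides, and 695 kept their sign on both. Since 692 of the 698 had no overlap between these 6 libraries, their sign was all but fixed in advance. The kept sign is therefore no check of the calls. CYP24A1 changed by 5.39 and 4.24 on the log2 scale on the 2 sides, ANGPTL4 by 5.07 and 4.91, and PLIN2 by 3.22 and 2.98. CDH1 changed by 2.81 and 3.01, ASNS by 2.71 and 2.50, and CCNB1 by -4.04 and -3.13. All 6 were calls without overlap between these same 6 libraries, so their change on each side is no independent check. SETDB1 was at -12.25 on the first side, where KRT-negative replicate 1 has 0 counts, and at -1.996 (adjusted p = 0.837) on the second, so its call was not seen on both. Median log2 changes by list are given for the first and the second side, beside 0 and 0.077 over all tested genes. They were 0.952 and 1.13 for the ATF4 and unfolded protein genes, -2.29 and -2.18 for mitosis and -1.61 and -1.45 for replication. PPAR targets were at 1.8 and 1.04, VDR targets at 0.581 and 1.63 and p53 targets at 0.34 and 0.417. Hypoxia and glycolysis genes were at -0.849 and -0.698 and cholesterol genes at -0.583 and -0.589.

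KRT-negative cells were also set against KRT-positive cells of the same hairpin, which share with them the vector and the sort but not the gate. In this contrast 73 genes were called (0.55% of those tested), 51 higher (0.384%) and 22 lower (0.166%) in the KRT-negative cells. With library totals in place of TMM the median change of all genes moved from -0.03 to -0.21 and the split became 36 higher and 35 lower, so directions here are relative to the TMM scale. Without 1 library the count was 15 to 20, or 130 without KRT-negative replicate 1. All 3 KRT-positive libraries lie on the same side of the GC trend as KRT-negative replicate 1, and with the side as a term 45 genes were called. SETDB1 was not called between the sorted groups (log2 -2.60, adjusted p = 0.366), at 2.15, 19.9 and 31.3 CPM in the KRT-positive libraries. KRT20 had 0, 0 and 56 counts in the KRT-positive libraries. ANGPTL4 stood at 154, 145 and 81.4 CPM in the KRT-positive libraries, below all KRT-negative ones (log2 2.46, adjusted p = 0.00137). PLIN2 was at 435, 407 and 515 CPM (log2 1.47, adjusted p = 0.00954) and CYP24A1 at 83.9, 131 and 93.5 CPM (log2 1.87, adjusted p = 0.0104). DDIT4 was at 152, 234 and 319.8 CPM, JUN at 525, 343 and 309 CPM and GDF15 at 1593, 1440 and 1533 CPM, each lower than in every KRT-negative library (adjusted p = 0.00137, 0.00336 and 0.0224). ANGPTL4, DDIT4 and JUN were called without each of the 6 sorted libraries in turn. PLIN2 lost its call without KRT-negative replicate 3 or KRT-positive replicate 1 or 2, CYP24A1 without KRT-negative replicate 2 or KRT-positive replicate 1 or 3, and GDF15 without any but KRT-negative replicate 1 (adjusted p up to 0.0915, 0.0778 and 0.163). Among genes chosen after their values were seen, the noncoding snoRNA hosts ZFAS1, SNHG5 and GAS5 were higher in the KRT-negative cells by 1.54, 2.27 and 1.64 on the log2 scale (adjusted p = 0.00137, 0.00137 and 0.00694), and so was HMGA1, a chromatin protein (1.95, adjusted p = 0.00137). ABCB1, the drug efflux pump, was at 26.3, 26.4 and 25.9 CPM in the KRT-negative, 154, 112 and 150.5 CPM in the KRT-positive and 0.976, 1.00 and 2.35 CPM in the unsorted libraries, so that the KRT-negative cells lay between the others (adjusted p = 0.00872 against KRT-positive and 5.04e-05 against unsorted). STIM1, the calcium sensor of the endoplasmic reticulum, showed the same order, at 186, 187 and 196 CPM in the KRT-negative, 617, 511 and 502 CPM in the KRT-positive and 86.01, 91.5 and 95.5 CPM in the unsorted libraries (adjusted p = 0.00357 against KRT-positive and 0.00638 against unsorted). GM2A, a lysosomal activator protein, was at 34.2, 45.8 and 29.7 CPM against 228, 202 and 168 CPM in the KRT-positive libraries (log2 -2.45, adjusted p = 0.00255) and was not called against unsorted cells. Of the genes chosen after their values were seen, GAS5 lost its call without KRT-positive replicate 1 and ABCB1 without KRT-negative replicate 2 or 3 or KRT-positive replicate 1 or 3 (adjusted p up to 0.0561 and 0.0633).

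CDH1, CLDN7, CDKN1A, MKI67 and TOP2A were not called between the sorted groups, with log2 differences of 0.14, -0.21, 0.32, -0.44 and 0.01. The summed level of ribosomal protein genes was lower in every KRT-positive library than in any KRT-negative or unsorted one. Of 83 tested, 1 was called higher and 2 lower against unsorted cells (median log2 0.09), with 0 called without KRT-negative replicate 2 or 3 or unsorted replicate 1 or 2, and 4 were called higher against KRT-positive cells. Over all 86 listed genes the sum was 75170, 96530 and 92600 CPM in the KRT-negative, 52790, 51440 and 51840 CPM in the KRT-positive and 72540, 77870 and 98160 CPM in the unsorted libraries. The KRT-positive contrast against unsorted cells uses the same unsorted libraries, so only each contrast's own counts are given: there 566 genes were higher (4.26%) and 666 lower (5.02%). The mitosis list had 28 called lower there and the PPAR list 7 called higher, beside 23 and 7 here.

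In SW480, another colorectal cancer line with SETDB1-hairpin KRT-negative and unsorted groups, 281 of 13252 genes were called (2.12%). Of the 698 genes called in HCT116, 686 were tested in SW480, and 81 of them were called there, 46 higher in both lines, 28 lower in both and 7 in opposite directions. The change itself differed between the lines in 153 of 14851 genes (1.03%), of which 91 were called in HCT116. CYP24A1 changed by 4.87 in HCT116 and 2.62 in SW480 (adjusted p of the difference = 0.017), and PLIN2 by 3.29 and 0.63 (0.000133). ANGPTL4 changed by 5.23 and 2.79, a difference that was not called (adjusted p = 0.146). CDH1 and CLDN7 were at 0.18 and -0.38 in SW480 (adjusted p of the difference = 0.000133 and 0.00271). ASNS was at -0.24 in SW480 against 2.90 (0.00183), GDF15 at -0.70 against 2.08 (0.00294) and FTH1 at 0.74 against 2.57 (7.09e-05). DDIT3 and MT2A were called in both lines, at 2.65 and -2.47 in SW480, and their difference was not (adjusted p = 0.979 and 0.96). DKK1 was at -3.23 in HCT116 and 3.80 in SW480, where it was not called on its own (adjusted p of the difference = 0.0162). CCNB1 was at -2.18 in SW480 and TOP2A at -1.12, and neither difference was called (adjusted p = 0.411 and 0.199). The differences in CYP24A1 and DKK1 were lost without 3 of the 12 libraries each: unsorted replicate 1, SW480 KRT-negative replicate 3 or SW480 unsorted replicate 2 for CYP24A1, and KRT-negative replicate 1 or 3 or SW480 unsorted replicate 1 for DKK1 (adjusted p up to 0.0669 and 0.0733). Between 89 and 144 genes differed between the lines when 1 of the 12 libraries was left out.

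**Figure D5:**
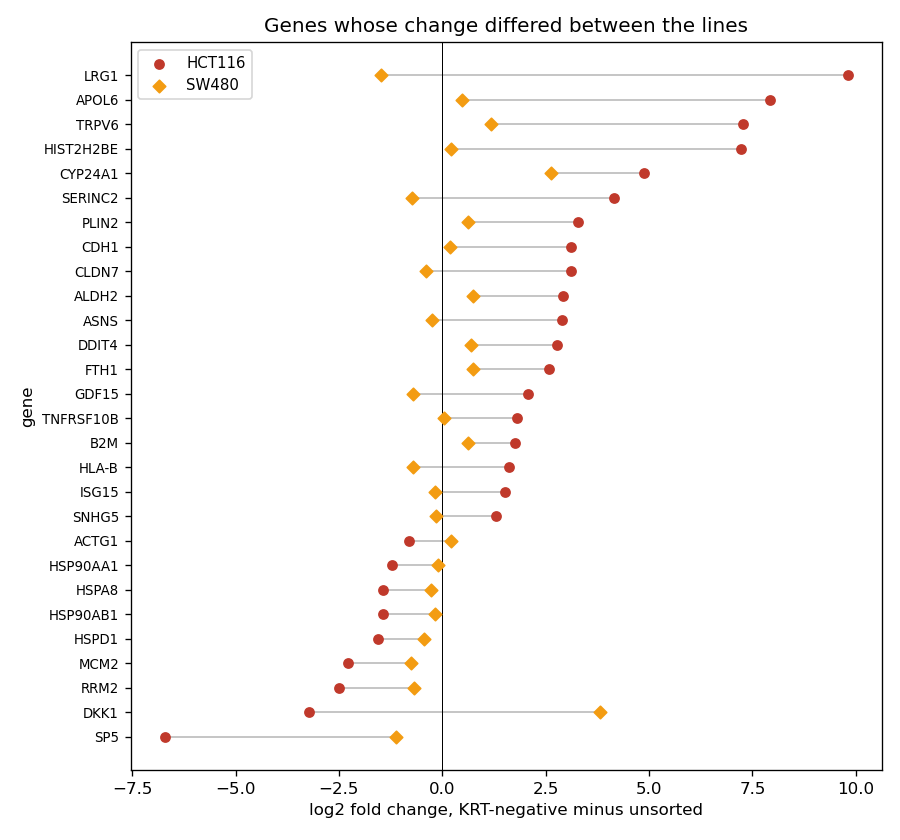
Each row is 1 of 28 genes named in the text whose change differed between the lines at 5 percent FDR, with its log2 fold change of KRT-negative minus unsorted on the x axis, in HCT116 (circles) and SW480 (diamonds). The genes were picked for that difference, so the distance between the symbols is a description; DKK1 is at -3.23 in HCT116 and 3.80 in SW480.

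In Caco2, KRT20-negative SETDB1-hairpin cells were measured against cells with a scramble hairpin in vehicle, another control, so values are given side by side only. CYP24A1 changed by 7.81 there, TRPV6 by 8.29, PLIN2 by 1.05 and ANGPTL4 by 0.91 (adjusted p = 6.86e-18, 5.84e-08, 1.43e-10 and 0.141). In Caco2 scramble cells given the differentiation medium, measured against the same vehicle cells, CYP24A1 changed by 8.22, TRPV6 by 6.10, PLIN2 by 1.69 and ANGPTL4 by -0.59. ASNS, which rose in HCT116, was at -1.55 in the Caco2 hairpin cells (adjusted p = 4e-11) and at 0.02 with medium alone (adjusted p = 0.903). CCNB1 was at -0.85 and 0.04, and CDH1 at 0.27 and 0.31.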

How the data were processed

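The files are raw counts of tags per gene symbol, deposited by the authors as 1 table per library. The labels' protocols name QuantSeq 3′ libraries from 500 ng of total RNA, and the submitters' processing notes name hg19, Bowtie2 and edgeR, with no version or role; the annotation and the strand setting are not given in the sources used here. Rows that repeat a symbol were summed, which left 24462 symbols. The 9 HCT116 libraries (5349737 to 10221854 counts in the 6 compared, where 3 counts are 0.318 to 0.64 CPM) were fitted together with edgeR 4.0.16 in R 4.3.3: filterByExpr, TMM scaling, robust quasi-likelihood test, group as the only term, Benjamini-Hochberg over 13279 genes, 6 residual degrees of freedom. The standard error is the log2 change over the square root of F. SW480 was fitted with the same settings, and the difference of the lines with all 18 HCT116 and SW480 libraries in 1 fit. On data simulated for the KRT-negative against unsorted comparison, with 13279 genes, edgeR called 3% of 100 genes changed 2-fold, 32% of 100 changed 4-fold and 1 unchanged gene. DESeq2 called 11%, 45% and 38 unchanged genes. The simulated counts held no GC trend, so they do not measure the error rate in these libraries.

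Genes were named by a rule: SETDB1 and keratins; up to 15 called genes per direction with the largest change, a mean of 10 CPM or more in one group and libraries that do not overlap; up to 10 per direction with the widest gap between groups; the 4 smallest adjusted p of each list, of which those that bear on a result are printed; and the 5 highest levels. ABCB1, ACADVL, ALDH2, ATF4, CDKN1A, EGR1, FTH1, GAS5, GM2A, HADHB, HLA-B, HMGA1, KIFC1, LPIN1, MDM2, MT1E, MT2A, OCLN, PLK1, PPARG, SERINC2, SLC7A11, SNHG5, SQSTM1, STIM1, VDR and ZFAS1 are outside it and were chosen after their values were seen. The comparison and the lists were chosen with earlier results of these data known. Gene positions are from GENCODE 29 and promoters from RefSeq, both GRCh38. Alternatives were RLE factors, library totals, no filter, a GC term, DESeq2 1.42.0, the 2 groups alone, a replicate block, each library left out, and each side of the GC trend. Some genes that meet the rule are not reported here.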

Additional observations from a re-analysis of the deposited data

Results flagged for a closer look

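The change from unsorted to KRT-negative cells differed between HCT116 and SW480 in 153 genes, by edgeR's test of the difference itself with Benjamini-Hochberg adjustment. 28 of the genes named above are among them, and 16 of the 28 were called without each of the 12 libraries in turn. Values are the HCT116 change minus the SW480 change on the log2 scale.

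Among the genes of lipid, vitamin D and stress responses the difference was 2.22 for CYP24A1, 6.10 for TRPV6, 2.65 for PLIN2, 2.07 for DDIT4, 3.12 for ASNS, 2.76 for GDF15 and 1.75 for TNFRSF10B. For the adhesion genes it was 2.91 for CDH1 and 3.46 for CLDN7. The Wnt targets DKK1 and SP5 differed by -7.05 and -5.62, and the replication genes RRM2 and MCM2 by -1.85 and -1.55. Interferon and antigen genes differed by 1.67 for ISG15, 1.13 for B2M, 7.47 for APOL6 and 2.31 for HLA-B. The chaperones HSPD1, HSPA8, HSP90AA1 and HSP90AB1 differed by -1.13, -1.19, -1.13 and -1.28, and ACTG1 by -1.05. FTH1, SERINC2, ALDH2 and SNHG5 differed by 1.81, 4.85, 2.15 and 1.42. HIST2H2BE and LRG1, which are near or at 0 counts in unsorted HCT116 cells, had fitted differences of 6.99 and 11.3, and LRG1, TNFRSF10B and MCM2 lost the call without at least 10 of the 12 libraries in turn.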

How the results depend on the processing

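Against the 698 genes called between KRT-negative and unsorted cells, DESeq2 called 1298, libraries on one side of the GC trend gave 350 and on the other 341, and leaving out 1 library in turn gave 395 to 730. Against the 73 called between KRT-negative and KRT-positive cells, 189 were called with no low-count filter, 45 with the GC side as a term, 464 by DESeq2, 126 with only those groups fitted and 15 to 130 with 1 library left out. The 153 genes that differed between the lines became 89 to 144 with 1 library left out. RPS27A, not called, turned its sign with the GC side as a term (-0.064), with the second side alone (-0.28) and in 3 of the 6 fits with 1 library left out, which ranged from -0.056 to 0.375. Of 105 called genes named in the text, 77 were called without each library in turn and 52 in every alternative that tested them. The other scalings kept the count for unsorted cells at 695 (RLE) and 720 (library totals). The median of the keratin and junction list turned below 0, to -0.05 with no filter, -0.07 by DESeq2 and -0.10 on the first GC side.

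Replicate numbers gave no clear pairing of the samples: deviations of same-numbered libraries correlated at 0.26, -0.102 and 0.197. Those of other pairs correlated at -0.424 to 0.252. The ranges overlap, so pairing is neither shown nor excluded. With a replicate block 693, 73 and 209 genes were called in the 3 comparisons. Genes under about 3 counts in a library cannot be told from absent ones, and intervals and bounds cover counting error only. On simulated data 2-fold changes were mostly missed, so a gene that was not called is not shown to be unchanged. DESeq2 called 38 unchanged genes there, so its larger counts may hold more false calls.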
